A study of Gymnopus androsaceus with 9 samples.

Results

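The genes described here are those whose transcripts were scarcer at 5 months than at either 2 or 10 months in Gymnopus androsaceus, the horsehair fungus, a small basidiomycete of conifer litter. There were 100 such genes among the 29375 listed. Mycelium grew on Scots pine needles mixed with sand in sealed microcosms and was harvested after 2, 5 and 10 months. Every microcosm, at all 3 harvests, had been sterilised by gamma radiation, inoculated with a single needle already colonised by the fungus and watered with ammonium chloride, so no harvest lacks any of these. Each harvest has 3 libraries, labelled as biological replicates, and the harvests differ only in time as far as the labels say. No harvest is an untreated control, and the age of the culture and the state of the litter changed together, so they cannot be told apart.

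Litter-decomposing basidiomycetes feed by secreting enzymes that break down cellulose, hemicelluloses and lignin in dead leaves and needles, and they take up the sugars and nitrogen compounds released. As a patch of litter is used up, such a mycelium is known to draw its cell contents out of old hyphae and to grow new ones from them. Transcript pools of these fungi often differ between young and old cultures. The deposited tables name genes only by JGI protein ID, and no product or sequence is paired with the IDs in the sources used here, so nothing is said of what any of the 100 genes encodes. In total RNA of whole mycelium, fewer hyphae of a kind and less transcript per hypha cannot be told apart.

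The 100 genes were chosen from the measured values themselves. Reads unique to one gene were divided by a size factor for each library, the median over genes of the ratio to the gene's geometric mean, and scaled so that the mean library held 1000000. These values, counts per 1000000 reads of a mean library, are called normalised CPM below. A gene was taken when its 2-month or 10-month mean reached 5, both of these means were at least 1.7 times the 5-month mean, and each 5-month library lay below all 6 others. The first condition was met by 12533 genes. Full separation of the 5-month libraries was met by 864 of these (6.89%), and 100 also met the fold minimum. A further 30 genes met the level and fold conditions but had overlapping libraries. The differences between 5 months and the other harvests are thus a description of how the genes were picked, and no test is given for them. With the roles of the harvests exchanged, 955 genes were lowest at 2 months and 460 were lowest at 10 months by the same conditions, while 320 stood highest at 5 months by the mirrored ones.

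The libraries held 21939600 to 96533143 unique gene reads. A level of 3 reads, taken as the floor of detection, corresponded to 0.0314 to 0.119 normalised CPM, which covers counting error only. Libraries of one harvest differed by more than sampling noise, with a chi-square per gene of at least 71.2. One feature of the series touches the results below. A set of 6 abundant genes that vary together took 6.84%, 24.9% and 3.35% of unique reads in 2-month replicates 1, 2 and 3. They took 1.39%, 1.47% and 2.30% in the 5-month libraries, and 17.2%, 31.9% and 1.24% in 10-month replicates 1, 2 and 3. The 3 libraries in which they took over 10% were 2-month replicate 2 and 10-month replicates 1 and 2. One of the 6, ID 960513, is among the 100 genes described here.

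Most of the 100 genes were of middling abundance and none was lost at 5 months. Their median level was 20.0, 19.0 and 21.5 normalised CPM in the 2-month libraries, 7.85, 7.18 and 7.79 in the 5-month libraries, and 17.5, 23.6 and 19.7 in the 10-month libraries. The higher of the 2- and 10-month means lay between 5 and 10 in 16 genes, between 10 and 50 in 55, between 50 and 100 in 14, and at 100 or more in 15. The 5-month mean was under 1 in 3 genes, between 1 and 10 in 54, and 10 or more in 43. None of the genes had 0 reads in any library. The fewest unique reads of any of them in a 5-month library were 4, in replicate 3, so every value stood above the floor of detection.

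Together the genes made up a small and changing part of the transcript pool. They held 1.21%, 2.62% and 1.13% of unique reads in the 2-month libraries, 0.406%, 0.448% and 0.413% in the 5-month libraries, and 1.59%, 2.68% and 0.805% in the 10-month libraries. Much of this came from a single gene. Without ID 960513 the shares were 0.823%, 0.774% and 0.978% at 2 months, 0.315%, 0.374% and 0.345% at 5 months, and 0.675%, 1.04% and 0.722% at 10 months. Once it was set aside, the share in 2-month replicate 2 was the lowest of its harvest in place of the highest. That in 10-month replicate 2 remained the highest of its own. The shares are of all unique reads, which include those of the abundant genes that vary together. Those genes took 6.84%, 24.9% and 3.35% in 2-month replicates 1, 2 and 3. The order of the 2-month shares therefore does not show that the remaining genes were lower in replicate 2.

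The depth of the dip was modest in most genes. The median log2 ratio of means was -1.27 at 5 against 2 months and 1.34 at 10 against 5 months, against -0.07 and 0.08 over the 12533 genes that met the level condition. Both comparisons share the 5-month libraries. Taking for each gene the smaller of its 2- and 10-month means over its 5-month mean, the median was 2.00, the lower quartile 1.79 and the upper quartile 2.60. This smaller fold reached 2 in 50 genes, 3 in 13, 5 in 5 and 10 in 2. The gap between harvests was narrow for many of them. The lowest of the 6 other libraries was a median of 1.38 times the highest 5-month library, at least 1.5 times in 32 genes and under 1.1 times in 7.

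At the edge of the fold condition stood ID 865483, the last gene taken, with a smaller fold of 1.701. It had 35.1, 21.7 and 30.1 normalised CPM at 2 months, 16.5, 18.0 and 16.6 at 5 months, and 29.5, 31.8 and 35.3 at 10 months. The first gene outside, ID 43331, also had separated libraries, with means of 19.1 at 2 months, 11.3 at 5 months and 25.3 at 10 months and a smaller fold of 1.699. Genes on either side of the limit thus differed little.

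**Figure D1:**
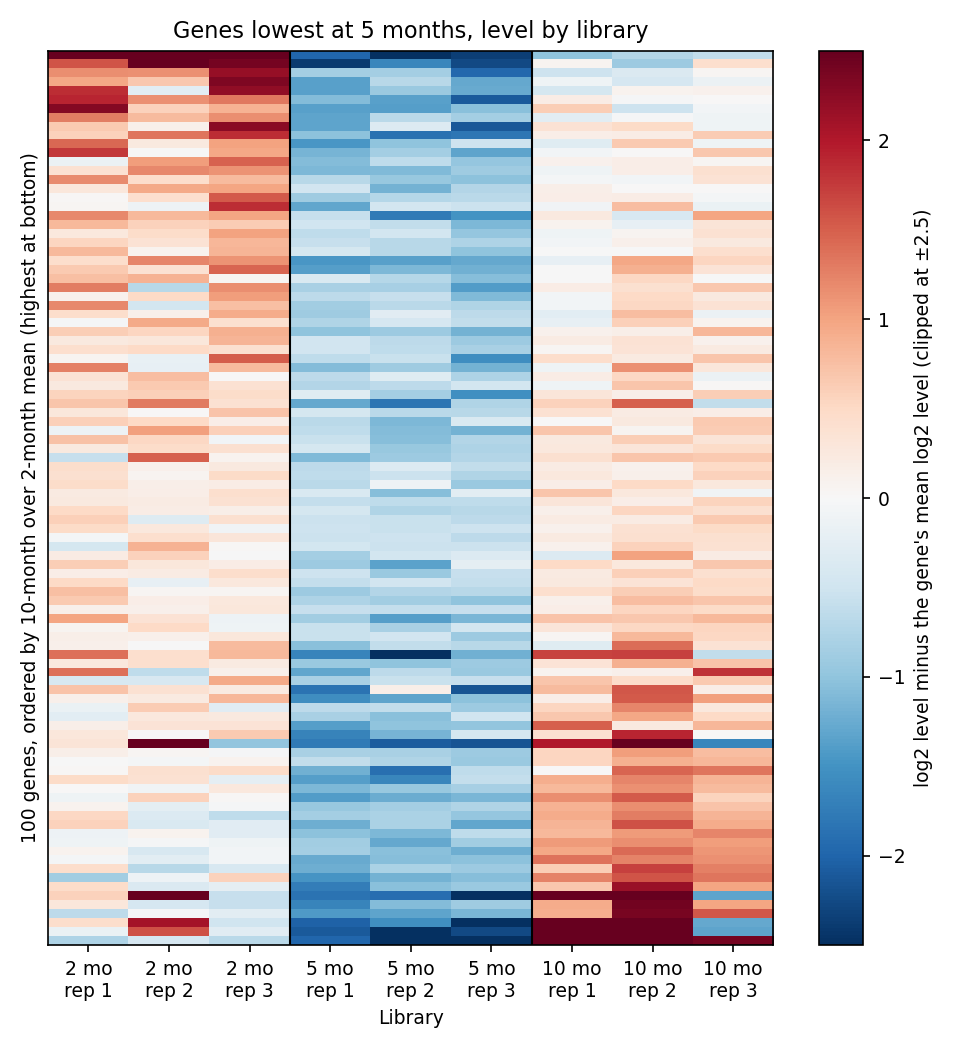
Log2 level of each of the 100 genes (rows) in the 9 libraries (columns), relative to the gene's own mean log2 level, in order of the 10-month over the 2-month mean. The 5-month columns are mostly blue because the genes were chosen that way. Rows at the top were higher at 2 than at 10 months, rows at the bottom higher at 10 than at 2 months, and a few rows are dark red only in 2-month replicate 2 and 10-month replicates 1 and 2.

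The 4 genes with the deepest dips were also the most uneven between libraries of one harvest. ID 943119, with the largest smaller fold of 14.3, had 462, 1949 and 207 normalised CPM in 2-month replicates 1, 2 and 3. It had 86.9, 83.0 and 13.8 in the 5-month libraries and 2030, 5624 and 125 in the 10-month libraries. The high values at 2 months came from replicate 2 and those at 10 months from replicates 1 and 2, while 10-month replicate 3 lay only 1.44 times above the highest 5-month library. Without 2-month replicate 2 the 2-month mean was 5.50 times the 5-month mean, in place of 14.3 times. Without 10-month replicate 2 the 10-month mean was 17.6 times the 5-month mean, in place of 42.4 times. With all 3 of those libraries left out, 10-month replicate 3 was the only library of its harvest. Its level was then 2.06 times the 5-month mean, and the 2-month mean was 5.48 times the 5-month mean.

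ID 960513, a short transcript of 195 bases and the most abundant of the 100 genes per length, followed the same course across the libraries. It had 3192, 18967 and 1300 normalised CPM at 2 months, 750, 606 and 577 at 5 months, and 10301, 27504 and 827 at 10 months. On the authors' RPKM scale, which divides by transcript length, its mean over all libraries was 29556, the rank of 5 among all genes. The 5-month libraries differed little among themselves, and the highest of them stood just under 10-month replicate 3, which was 1.102 times higher. Its 2-month mean was 12.1 times and its 10-month mean 20.0 times the 5-month mean. Leaving out 2-month replicate 2 gave 3.51 times for 2-month over 5-month and leaving out 10-month replicate 2 gave 8.66 times for 10-month over 5-month. Without the 3 rich libraries the 10-month level, then replicate 3 alone, was 1.29 times the 5-month mean. The gene then no longer met the fold condition.

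IDs 839731 and 952265 ranked next and were singled out after their values were seen. ID 839731 had 14.6, 45.8 and 7.72 normalised CPM at 2 months, 2.66, 3.74 and 0.535 at 5 months, and 94.3, 181 and 4.48 at 10 months. ID 952265 had 2.27, 7.64 and 2.10 at 2 months, 0.589, 0.314 and 0.535 at 5 months, and 17.7, 67.9 and 1.03 at 10 months. Both were highest in the same 3 libraries as the pair above. Without those libraries their 10-month levels, then replicate 3 alone, were 1.95 and 2.16 times the 5-month mean, in place of 40.3 and 60.2 times. ID 952265 then no longer met the level condition. Of the 4 genes with the deepest dips, 2 still passed all conditions. A level in 2-month replicate 2 of at least 2 times both other 2-month libraries, together with 10-month replicates 1 and 2 both at least 2 times replicate 3, was found in 11 (0.0878%) of the 12533 genes meeting the level condition, these 4 among them. All 6 of the abundant co-varying genes showed it, of which only ID 960513 had every 5-month library below all others. The part of those libraries in the other genes' dips was not tested beyond leaving them out. Genes already chosen as separated could then fail mainly on fold or level. With a single 10-month library then left, 81 of the 100 genes passed all conditions.

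ID 924258 was the second most abundant of the 100 genes per length, with a mean of 2906 RPKM and rank 24 among all genes. It had 2616, 2370 and 4118 normalised CPM at 2 months, 1164, 1559 and 1472 at 5 months, and 1925, 6272 and 3080 at 10 months. Its 2-month mean was 2.17 times and its 10-month mean 2.69 times the 5-month mean, and without 10-month replicate 2 the 10-month figure was 1.80 times. The difference was small beside that of ID 960513. That no 5-month library reached any other was required by the choice of genes. Together with ID 943119, at 1396 RPKM and rank 62, these were the 3 genes of the 100 among the 100 most abundant by mean RPKM. Abundance was otherwise moderate, with a median of 13.9 RPKM, a lower quartile of 8.89 and an upper quartile of 33.2.

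Other genes dipped with little scatter. In 21 of the 100 genes the highest library of each harvest was under 1.5 times the lowest, a steadiness seen in 42.1% of the genes meeting the level condition. Their smaller folds ran from 1.704 to 2.38 with a median of 1.86. The deepest of these dips, singled out after the values were seen, belonged to IDs 984691 and 810488. ID 984691 had 27.6, 30.5 and 26.6 normalised CPM at 2 months, 12.0, 11.4 and 12.1 at 5 months, and 28.9, 42.3 and 37.2 at 10 months. ID 810488 had 23.6, 27.4 and 26.2 at 2 months, 14.5, 10.4 and 11.6 at 5 months, and 23.9, 24.5 and 27.7 at 10 months. In ID 810488 the 2- and 10-month values overlapped and lay at least 1.62 times above every 5-month value. With any 1 library or all 3 rich libraries left out, the smaller fold stayed between 2.29 and 2.46 for ID 984691. For ID 810488 it stayed between 1.94 and 2.30. Both genes were picked for little scatter within harvests, which leaves these folds little room to move.

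**Figure D2:**
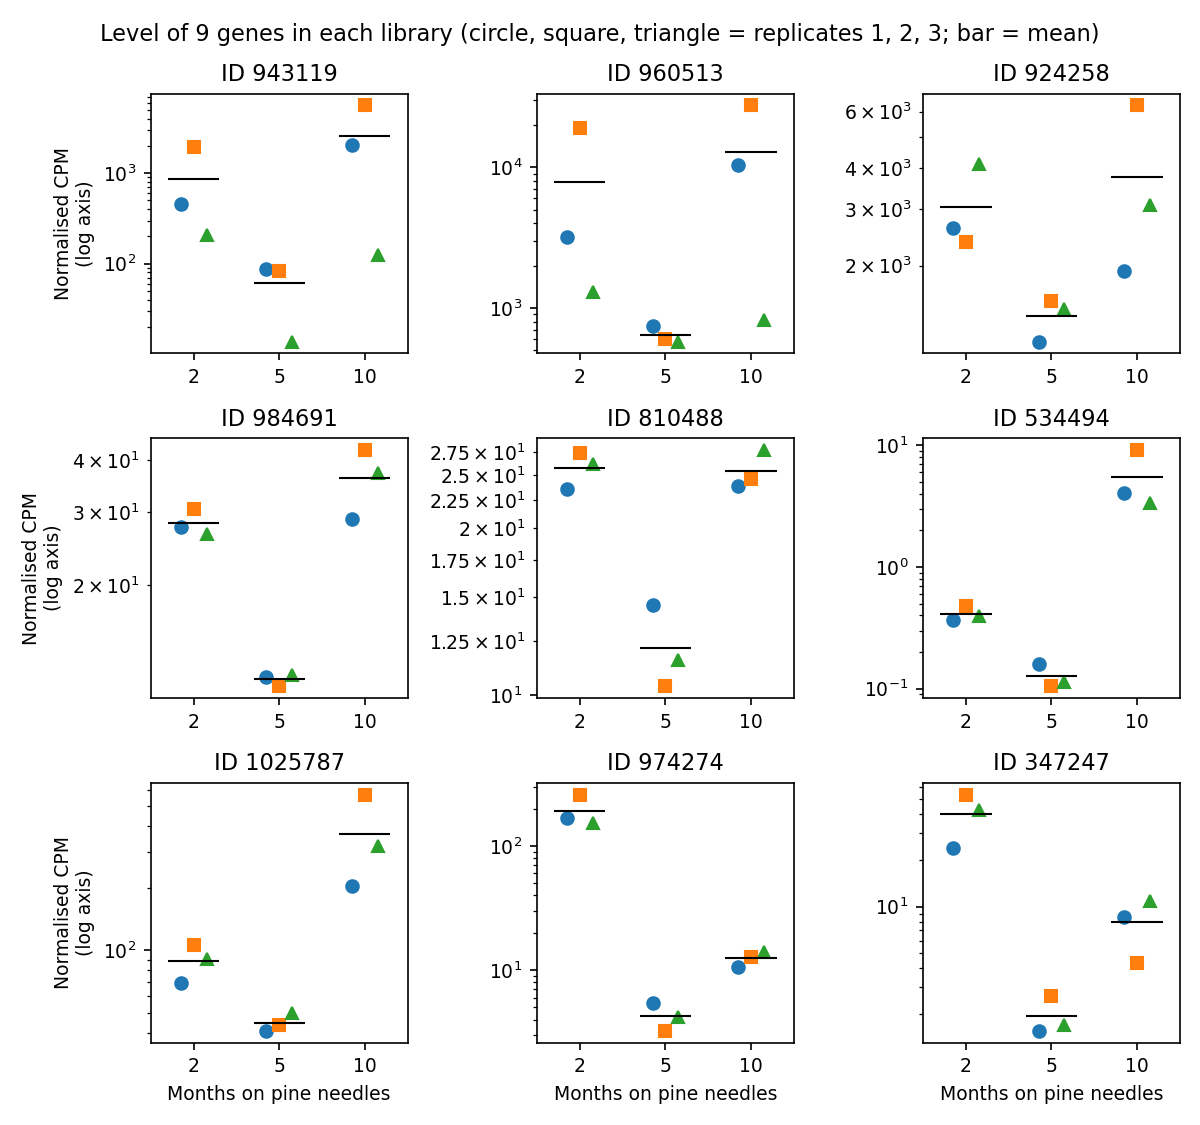
Normalised CPM (log axes) of 9 of the genes in every library at 2, 5 and 10 months. Circles, squares and triangles are replicates 1, 2 and 3, and bars are harvest means. In IDs 943119 and 960513 the 2-month square and the 10-month circle and square lie far above the triangles, whereas in IDs 984691 and 810488 the libraries of each harvest lie close together.

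The scatter between libraries was largest at 2 months. The highest library was a median of 1.68 times the lowest at 2 months, 1.36 times at 5 months and 1.42 times at 10 months, against 1.42, 1.30 and 1.29 times over the genes meeting the level condition. Scatter of at least 2-fold was seen at 2 months in 30 of the 100 genes, at 5 months in 15 and at 10 months in 25. The share of all genes with such scatter was not counted. At 2 months the highest value fell to replicates 1, 2 and 3 in 36, 31 and 33 genes, so no library led. Over the genes meeting the level condition these shares were 32.4%, 29.3% and 38.4%. At 10 months it fell to replicate 2 in 60 genes, replicate 1 in 10 and replicate 3 in 30. Over all genes meeting the level condition these 10-month shares were 43.0% for replicate 2, 31.7% for replicate 1 and 25.4% for replicate 3. The recovery of many genes was therefore highest in 10-month replicate 2, the library with the most reads in the 6 abundant genes. The part of that library was not tested beyond leaving it out, after which 88 of the 100 genes still passed. Separation was a condition of the choice, so with a library left out these genes could fail mainly on fold or level.

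How far the genes had come back by 10 months was asked by comparing 10 with 2 months. The choice of genes set no ratio between these harvests, but its level condition took the higher of both means, and 11 of the 100 genes reached 5 at only one of them. The values of those 11 helped to choose them and are given as a description. All 100 genes passed the low-count filter and were tested with edgeR's quasi-likelihood test among 20168 genes. By a Benjamini-Hochberg adjusted p under 0.05, 18 genes were higher and 13 lower at 10 than at 2 months, and 69 were not called. Over all genes tested 33.1% were called, 17.5% higher and 15.6% lower, so the 31 called here are near the background and say nothing particular of these genes. Of the 31, 4 were among the 11 genes that reached the level at only one harvest, so their calls are a description. Among the 89 genes that reached 5 at both harvests, 16 were called higher and 11 lower (30.3%), beside 20.4% higher and 16.8% lower over the 10980 tested genes that did so. The median log2 fold change at 10 against 2 months was 0.05 in the 100 genes, with quartiles of -0.44 and 0.62, beside -0.03 over all genes tested, with quartiles of -0.51 and 0.51. Of the 69 genes not called, 50 had log2 fold changes within 0.5 of 0, and 4 lay at or beyond 1 in size. Those 4 were IDs 943119, 839731 and 952265, whose scatter is given above, and ID 921027. Their standard errors were as high as 1.30 against a median of 0.27 over the genes not called, so for these the data do not settle whether the levels differed.

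The 18 genes that rose beyond their 2-month level did so by a median log2 fold change of 1.14, and 12 of them by at least 2-fold. All but 2 reached the level condition at both harvests. Those 2, chosen partly through their 10-month values, are among the 12 and enter these figures as a description. Their harvest means had medians of 18.2 (2 months), 9.52 (5 months) and 30.6 normalised CPM (10 months). The 10-month libraries lay wholly above the 2-month libraries in 17 of them, as in 98% of all genes called higher. The largest difference was in ID 534494, a rare transcript that reached the level condition through its 10-month values alone. It is counted among the 18, but its call is a description and no p-value is given for it. It had 0.370, 0.475 and 0.396 normalised CPM at 2 months, 0.161, 0.105 and 0.113 at 5 months, and 4.08, 9.15 and 3.34 at 10 months. These values rest on 23, 14 and 10 reads at 2 months and 12, 10 and 4 reads at 5 months, so its dip is small in reads beside its 10-month level. Without 10-month replicate 2, or without the 3 libraries rich in the 6 abundant genes, it no longer met the conditions. The next largest was in ID 1025787, which reached the level at both harvests, with 69.4, 107 and 90.9 at 2 months, 40.7, 43.7 and 49.5 at 5 months, and 205, 567 and 322 at 10 months. At 10 against 2 months its log2 fold change was 2.01, with a standard error of 0.31 (edgeR, adjusted p = 0.00046). In both genes the 2-month level was the nearer to the 5-month one, and 10-month replicate 2 was the highest library.

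The 13 genes that stayed below their 2-month level fell by a median log2 fold change of -1.39, and 9 of them by at least 2-fold. All but 2 reached the level condition at both harvests. Those 2, chosen partly through their 2-month values, are among the 9 and enter these figures as a description. Their harvest means had medians of 25.6 (2 months), 4.27 (5 months) and 12.4 normalised CPM (10 months). The 10-month libraries lay wholly below the 2-month libraries in 9 of them, beside 94.7% of all genes called lower. ID 974274 fell most, with 168, 258 and 152 normalised CPM at 2 months, 5.41, 3.23 and 4.17 at 5 months, and 10.6, 12.8 and 14.0 at 10 months. Every 10-month library was above every 5-month library, by at least 1.96 times, yet far under every 2-month library. Its log2 fold change at 10 against 2 months was -3.97 with a standard error of 0.26 (edgeR, adjusted p = 1.0e-06). ID 347247 had 24.0, 53.4 and 42.6 at 2 months, 1.55, 2.62 and 1.69 at 5 months, and 8.55, 4.30 and 10.8 at 10 months, a log2 fold change of -2.35 with a standard error of 0.38 at 10 against 2 months (edgeR, adjusted p = 0.000801). Without the 3 libraries rich in the 6 abundant genes its value was -1.63 and it was no longer called. That fit left a single 10-month library. Across the other alternatives its adjusted p ran from 3.8e-09 (DESeq2) to 0.0043 (edgeR, without 2-month replicate 3). The number of genes called lower was 8 without 10-month replicate 1, in place of 13, while over all genes tested the lower calls were 12.3% in place of 15.6%.

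**Figure D3:**
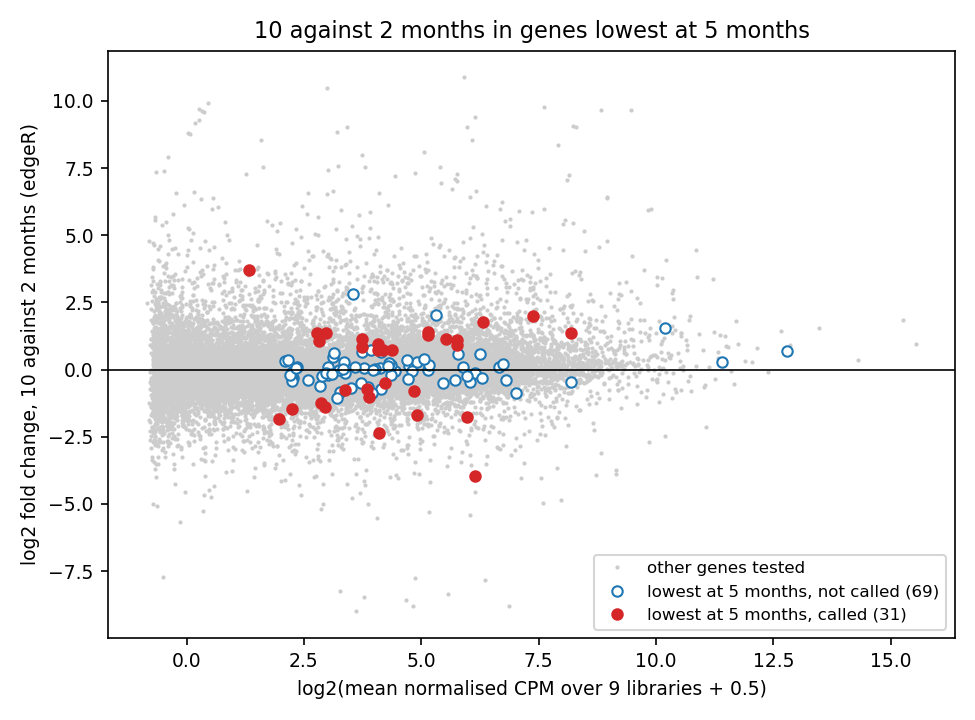
Log2 fold change at 10 against 2 months (edgeR) against log2 mean level over the 9 libraries, with the 31 called genes in red, the 69 not called as open blue circles and all other tested genes in grey. The 100 genes scatter on both sides of 0, with ID 534494, chosen through its 10-month level, highest at 3.72 and ID 974274 lowest at -3.97.

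For the most abundant genes the return was not told apart from their 2-month level. The log2 fold change of ID 960513 at 10 against 2 months was 0.69 with a standard error of 1.19 (edgeR, adjusted p = 0.695), and it was -0.50 without 10-month replicate 2. It was 2.49 once 2-month replicate 2 was left out and -1.46 with none of the 3 rich libraries. That of ID 943119 was 1.54 with a standard error of 1.30 (edgeR, adjusted p = 0.403), and it was 0.29 without 10-month replicate 2. It was 2.92 once 2-month replicate 2 was left out and -1.44 with none of the 3 rich libraries. ID 924258 had 0.28 with a standard error of 0.37 (edgeR, adjusted p = 0.594) and -0.29 without 10-month replicate 2 or -0.25 under library totals alone. No direction is therefore given for these 3 genes, whose signs turned with the libraries kept and, in ID 924258, with the scaling. ID 865483, at the edge of the fold condition, had 0.13 with a standard error of 0.18 (edgeR, adjusted p = 0.614), and -0.04 without 2-month replicate 2 or -0.28 under library totals alone.

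Which genes dip at 5 months depended on how the libraries were scaled. Scaling with TMM, the trimmed mean of log ratios used by edgeR, gave 102 genes and kept all 100. Upper-quartile scaling gave 83 genes, 82 of them from the 100. Library totals with no further scaling left 30 genes, all from the 100. Library totals without the 6 abundant genes, tried after seeing the data, gave 56 genes, 52 of them from the 100. The lower level at 5 than at 2 months hardly moved between these scalings, while the return by 10 months did. Under library totals the median log2 ratio of the 100 genes was -1.15 at 5 against 2 months and 0.78 at 10 against 5 months, as the median of the 12533 genes moved to 0.05 and -0.47. That the 100 stood lower at 5 months relative to that shift of all genes follows from their choice, which used a median-based scaling. Under library totals 45 rather than 100 of them kept every 5-month library below all others.

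**Figure D4:**
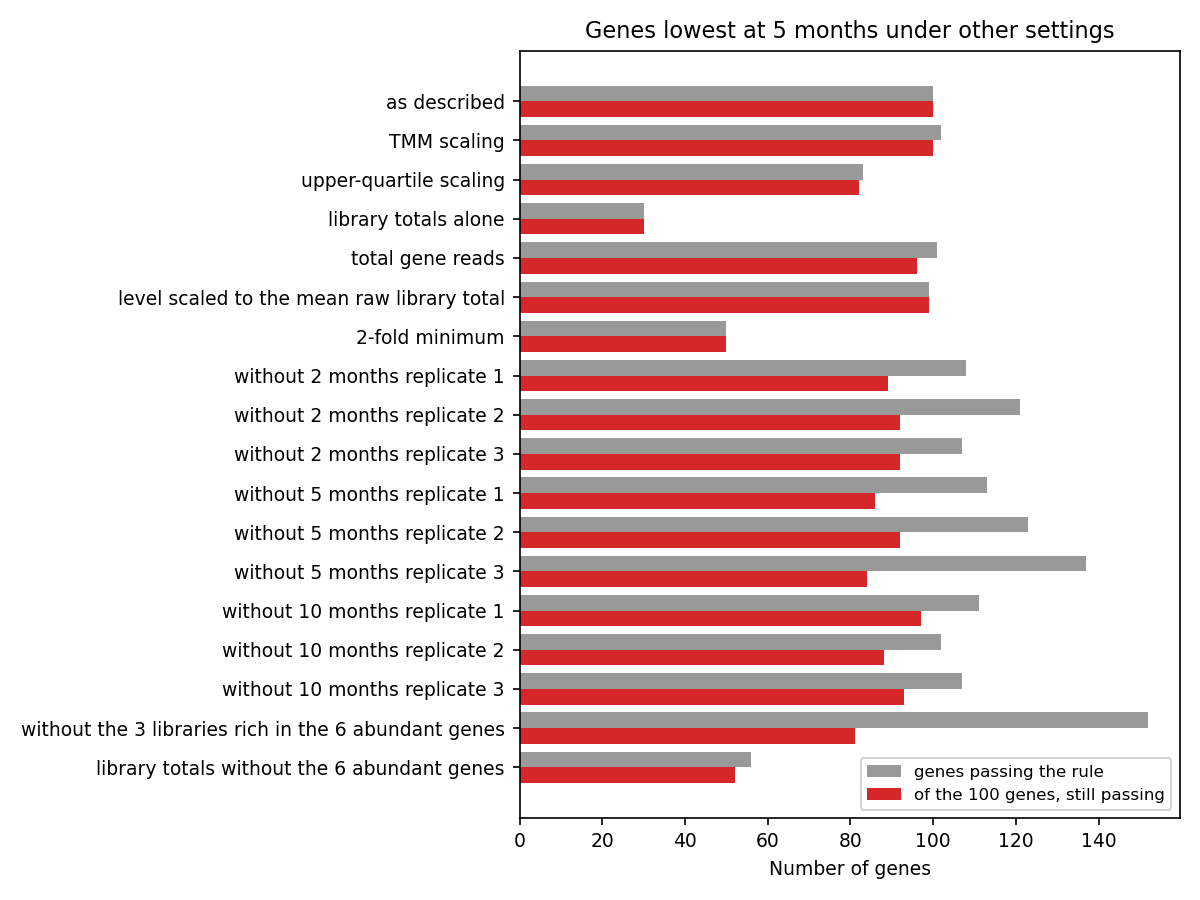
Number of genes meeting all conditions (grey) and number of the 100 genes still among them (red) under each scaling, read type, threshold and set of libraries. Bars are shortest for library totals alone, at 30, and longest in grey without the 3 rich libraries, at 152, where fewer libraries have to be separated.

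The genes were also described by properties that the conditions did not name. The level condition counted unique reads and did not divide by length, so both properties bear on it. Transcript lengths, recovered from the authors' RPKM and total gene reads, had a median of 1104 bases, quartiles of 739 and 1569, and extremes of 195 and 3500. Genes meeting the level condition had a median of 1296 bases with quartiles of 894 and 1823. Few reads were shared with other genes: 55 of the 100 had no shared read, beside 51.0% of the genes meeting the level condition, and 9 had over 1% of reads shared, beside 16.9%. One gene had over 10% of its reads shared, at 18.4%. Reads shared with near copies thus touch few of the levels given here, and with total gene reads in place of unique ones 96 of the 100 genes passed again.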

How the data were processed

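The authors deposited one table per library, which per the file headers holds counts of reads unique to each gene, counts of all its reads, and RPKM. RPKM is scaled by the authors to total gene reads. The sources used here name neither aligner and counting tool nor genome build and annotation. Unique gene reads of 9 libraries were normalised in Python 3.11.15 with pandas 2.3.3 and numpy 2.4.6, and figures drawn with matplotlib 3.10.9. All genes were tested in R 4.3.3 with edgeR 4.0.16 (TMM, filterByExpr, robust quasi-likelihood fit of all 3 harvests, no covariate, Benjamini-Hochberg adjustment over 20168 genes, threshold 0.05), and with DESeq2 1.42.0 as an alternative. Standard errors are the log2 fold change over the square root of F. The choice of genes was tried on simulated counts with sampling noise alone and planted dips deeper than most of those here. It therefore checks the code only. The edgeR test was tried on simulated counts with planted changes at 10 months. The genes and tests were chosen with earlier results of these data known. IDs were named by rule: the 2 deepest dips, the 2 highest mean RPKM, the 2 largest called rises and falls at 10 against 2 months, and the gene nearest the fold minimum; those named for other reasons are marked. Lists of gene families by product could not be applied, as IDs carry no product.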

Additional observations from a re-analysis of the deposited data

How the results depend on the processing

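Of 17 alternatives, 13 kept the number of genes passing within 1.5 times of 100, and 14 kept at least 81 of the 100 genes themselves. The exceptions were library totals alone (30 genes, 30 of the 100), a 2-fold minimum (50 and 50), library totals without the 6 abundant genes (56 and 52) and leaving out the 3 libraries rich in those genes (152 genes, 81 of the 100). Leaving out 1 library at a time gave 102 to 137 genes and kept 84 to 97 of the 100. Separation is easier to meet with fewer libraries and already held for the 100, so these counts are a description. At 10 against 2 months, the 18 genes called higher became 10 under library totals alone and 6 without the 3 rich libraries; the 13 called lower became 25 and 3, and 28 under library totals without the 6 abundant genes. Over all genes tested in the same fits, higher calls were 8.36% and 7.36% in place of 17.5%, and lower calls 25.3%, 3.32% and 29.0% in place of 15.6%. Counting only the 89 genes that met the level at both harvests, chosen after seeing the data, gave 16 higher and 11 lower. All 9 genes called without the 3 rich libraries were also called with them; that fit left a single 10-month library, assumed to vary like the others. Leaving out 1 library gave 16 to 19 higher, 8 to 15 lower and a median log2 fold change of -0.03 to 0.07. Over all genes tested in those fits, 13.6% to 17.6% were called higher and 11.0% to 15.6% lower. The median was 0.05 as reported, -0.37 under library totals alone and -0.29 without the 6 abundant genes in the totals. Replicate number as a block gave 18 higher and 10 lower, beside 15.4% higher and 12.8% lower over all genes tested. Deviations of same-numbered libraries from their harvest means correlated at -0.33 to 0.16, under 0.1 in 8 of 9 pairs. Those of differently numbered libraries correlated at -0.26 to 0.30. These values show no pairing by number, but with 3 libraries per harvest they cannot exclude it. Of the 8 genes named by rule, only ID 347247 changed sides of the threshold, and the causes were not tested.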
